A study of Mus musculus with 12 samples.

Results

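Cell division requires that duplicated chromosomes are compacted, attached to a spindle of microtubules and pulled apart. A set of 52 genes that carry out these steps was described here in mouse T-cell lymphomas and in normal thymocytes. The genes were taken from a list of spindle, kinetochore and condensin genes, and all 52 of 52 listed genes had a probe set with a single gene symbol, among 19309 genes measured in all. One of them, listed as Casc5, was found under its newer symbol Knl1. They were grouped by role into 5 checkpoint genes, 6 mitotic kinases and passenger complex genes, 11 kinesins, 11 centromere and kinetochore genes, 7 condensin and chromosome structure genes, 6 genes of entry into and exit from mitosis, and 6 genes of the spindle midzone and cytokinesis. The last group also holds the spindle proteins Aspm and Tpx2.

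The arrays held thymus RNA of FVB/N mice. Dnmt3a-deficient tumors (n = 4) were lymphomas driven by MYC in which the DNA methyltransferase gene Dnmt3a was deleted in blood-forming cells, and they were taken at the terminal stage. Control tumors (n = 5) were MYC lymphomas labelled wild type, also terminal. Normal thymocytes (n = 3) were wild type, carried no tumor and came from mice 24 days old. The sources used here name neither the promoter that drives MYC nor the Cre line. They do not say whether each array came from its own animal, so the p-values cover the spread among these arrays, which may be technical. Age and tumor state, and any batch and group, cannot be told apart in this design.

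In mitosis, cyclin-dependent kinase 1 with a B-type cyclin starts chromosome condensation and spindle assembly, kinetochores on each centromere capture microtubules, and the checkpoint kinase Bub1 and its partners hold back anaphase until every kinetochore is attached. Kinesin motors then shape and slide the spindle, and the spindle midzone directs the cut between daughter cells. Most of these genes are transcribed mainly in late S, G2 and M phase, so their messages mark dividing cells, and in the thymus division is concentrated in immature thymocytes.

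Many promoters of mitotic genes are known to carry CCAAT boxes, which bind the factor NF-Y, and a cell cycle homology region (CHR), which binds the DREAM and MuvB complexes. Promoter windows from 250 before to 50 after the start, were available for 44 members and for 15151 genes of the table in all. The following 120 bases before the start come from RefSeq on build GRCm38.p6, 5′ to 3′ on the strand of the gene, and show how such motifs lie in 3 members with the largest differences (Bub1, Kif11, Cenpe) and in 2 members not called in any comparison, picked after their values were seen (Plk1, Cdc20). Capitals mark CCAAT or its reverse ATTGG, and TTTGAA, its reverse TTCAAA or TTTAAA. The positions are chr2:127831860-127831979 on the minus strand for Bub1, chr19:37376262-37376381 on the plus strand for Kif11, chr3:135212443-135212562 on the plus strand for Cenpe, chr7:122159315-122159434 on the plus strand for Plk1 and chr4:118437344-118437463 on the minus strand for Cdc20.
Bub1: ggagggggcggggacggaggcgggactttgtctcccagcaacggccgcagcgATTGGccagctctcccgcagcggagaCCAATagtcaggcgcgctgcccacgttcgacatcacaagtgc
Kif11: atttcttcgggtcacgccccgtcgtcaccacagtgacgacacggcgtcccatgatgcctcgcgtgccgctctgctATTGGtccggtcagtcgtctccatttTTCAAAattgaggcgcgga
Cenpe: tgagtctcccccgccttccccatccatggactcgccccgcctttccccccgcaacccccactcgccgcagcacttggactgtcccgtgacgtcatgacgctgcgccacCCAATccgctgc
Plk1: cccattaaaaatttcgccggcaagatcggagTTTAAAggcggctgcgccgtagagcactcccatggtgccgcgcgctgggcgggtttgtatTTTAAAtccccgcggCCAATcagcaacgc
Cdc20: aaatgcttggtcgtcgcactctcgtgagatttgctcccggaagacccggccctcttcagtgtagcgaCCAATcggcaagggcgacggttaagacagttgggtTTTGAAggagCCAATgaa

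TTTGAA or TTTAAA, searched on both strands, was found in the windows of 37 of 44 members (84.1%), against 24.0% of all windows. Between 100 bases before and 50 after the start it was found in 33 of 44 members, against 10.2% of all genes. CCAAT on either strand was found in 32 of 44 members (72.7%), against 38.3% of all genes, and 18 members (40.9%) held at least 2 CCAAT matches, against 13.1%. Both motifs together lay in 29 of 44 member windows (65.9%), against 9.56% of all windows. Top2a, a topoisomerase that untangles sister DNA, held 6 CCAAT matches. The E2F motifs TTTCCCGC, TTTGGCGC and TTTCGCGC were found in 5 members (11.4%), against 2.71% of all genes, and the E-box CACGTG, a motif that MYC can bind, in 3 members (6.82%), against 8.44%. TTTGAA or TTTAAA was found in 27 of 34 windows of members that were higher in deficient tumors and in 10 of 10 windows of the others. These matches are letters in reference sequence of another mouse strain and show neither binding nor regulation. Aurkb, Ccna2, Cdc25c, Incenp, Kif20a, Ska1, Smc4 and Tpx2 had no window.

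**Figure D1:**
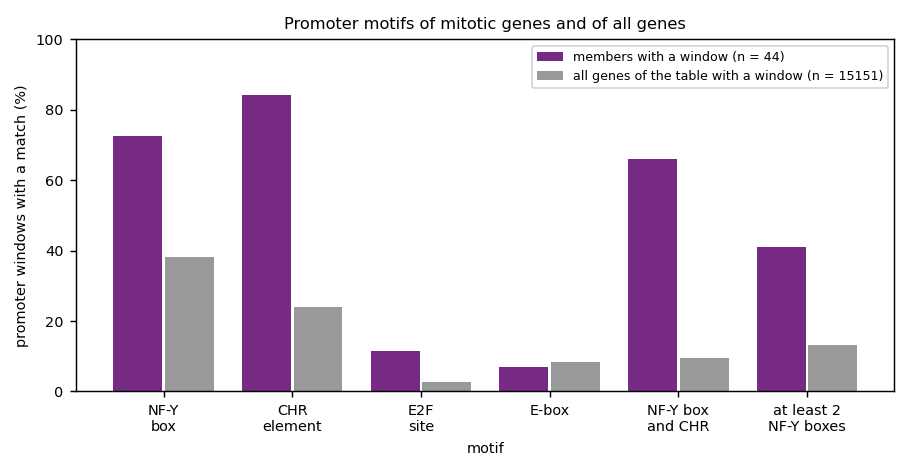
Share of promoter windows, in percent, that hold each motif on either strand, for the 44 members with a window (purple, left bar) and for all 15151 genes with a window (grey, right bar). The CHR element was found in 84.1% of member windows and 24.0% of all windows, and the E-box in 6.82% and 8.44%.

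Dnmt3a itself, as a check of the labels, had a log2 expression of 7.19 to 7.62 in deficient tumors, 8.19 to 9.57 in control tumors and 9.33 to 9.63 in normal thymocytes. The arrays differed in the upper part of their distributions: the 75th percentile of log2 values was 8.50 to 8.60 in deficient tumors, 8.54 and 8.51 in control tumors 1 and 2, 8.25 to 8.30 in control tumors 3, 4 and 5 and 8.13 to 8.21 in normal thymocytes. Of other cell types, the 10 measured neutrophil markers averaged 8.10 and 7.96 in control tumors 3 and 4, against 5.58 to 5.93 in the other control tumors, 5.40 to 6.09 in deficient tumors and 6.42 to 6.85 in normal thymocytes. The 6 measured adipocyte markers averaged 8.87 in control tumor 2, against at most 5.61 on any other array. The 13 measured T-cell markers averaged 9.85 to 10.38 in deficient tumors, 10.02 to 10.72 in control tumors and 11.09 to 11.27 in normal thymocytes. In the same order, 10 macrophage markers averaged 6.94 to 7.68, 6.16 to 7.74 and 6.60 to 6.79. For 6 thymic epithelium markers the ranges were 6.67 to 7.04, 5.98 to 6.60 and 7.16 to 7.30. For 8 endothelium and fibroblast markers they were 6.40 to 6.65, 6.37 to 6.81 and 6.86 to 6.89. The part of other cell types in the values below was not tested beyond the fits that left out arrays.

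Both tumor groups held more message of most mitotic genes than normal thymocytes. In Dnmt3a-deficient tumors 40 of 52 members were higher than in normal thymocytes and 1 was lower (limma over 19309 genes, Benjamini-Hochberg adjusted p under 0.05). Over all genes, 18.7% were higher and 19.0% lower in that comparison. In control tumors 30 of 52 members were higher and 0 lower, against 13.0% and 11.3% of all genes. At an unadjusted p under 0.05, 2 members (Bub3 and Aurka) were lower in control tumors, against 18.9% of all genes. With cyclic loess scaling of the arrays the counts were 32 higher and 5 lower in deficient tumors, against 16.6% and 16.0% of all genes, and 28 higher and 4 lower in control tumors, against 12.3% and 11.2%. The median log2 difference from normal was 1.28 over the members in deficient tumors, with a range of -0.94 to 4.15, and 0.94 in control tumors, with a range of -0.57 to 3.08. The median over all genes was -0.10 in deficient tumors and -0.08 in control tumors. At least a 2-fold difference was reached by 31 of the called members in deficient tumors and by 24 in control tumors. The share of all genes that reached it was not counted. Both comparisons use the same 3 normal arrays, so they are not independent of each other. In bulk RNA, more dividing cells and more mitotic message per cell cannot be told apart.

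The mean log2 expression over the 52 members on each array was 9.47, 9.44, 9.52 and 9.66 in deficient tumors, 9.38, 9.26, 9.21, 8.86 and 8.79 in control tumors, and 8.21, 7.72 and 8.16 in normal thymocytes. No tumor array came down to the level of a normal array. The lowest deficient tumor lay just above the highest control tumor. For single members, 40 of 52 had every deficient tumor above every normal array, which was true of 23.0% of all genes, and 3 (Aurka, Kif22 and Bub3) had every deficient tumor below, against 26.7% of all genes. Every control tumor lay above every normal array for 28 members, against 13.8% of all genes, and below for 1 member, Bub3, against 14.0%.

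**Figure D2:**
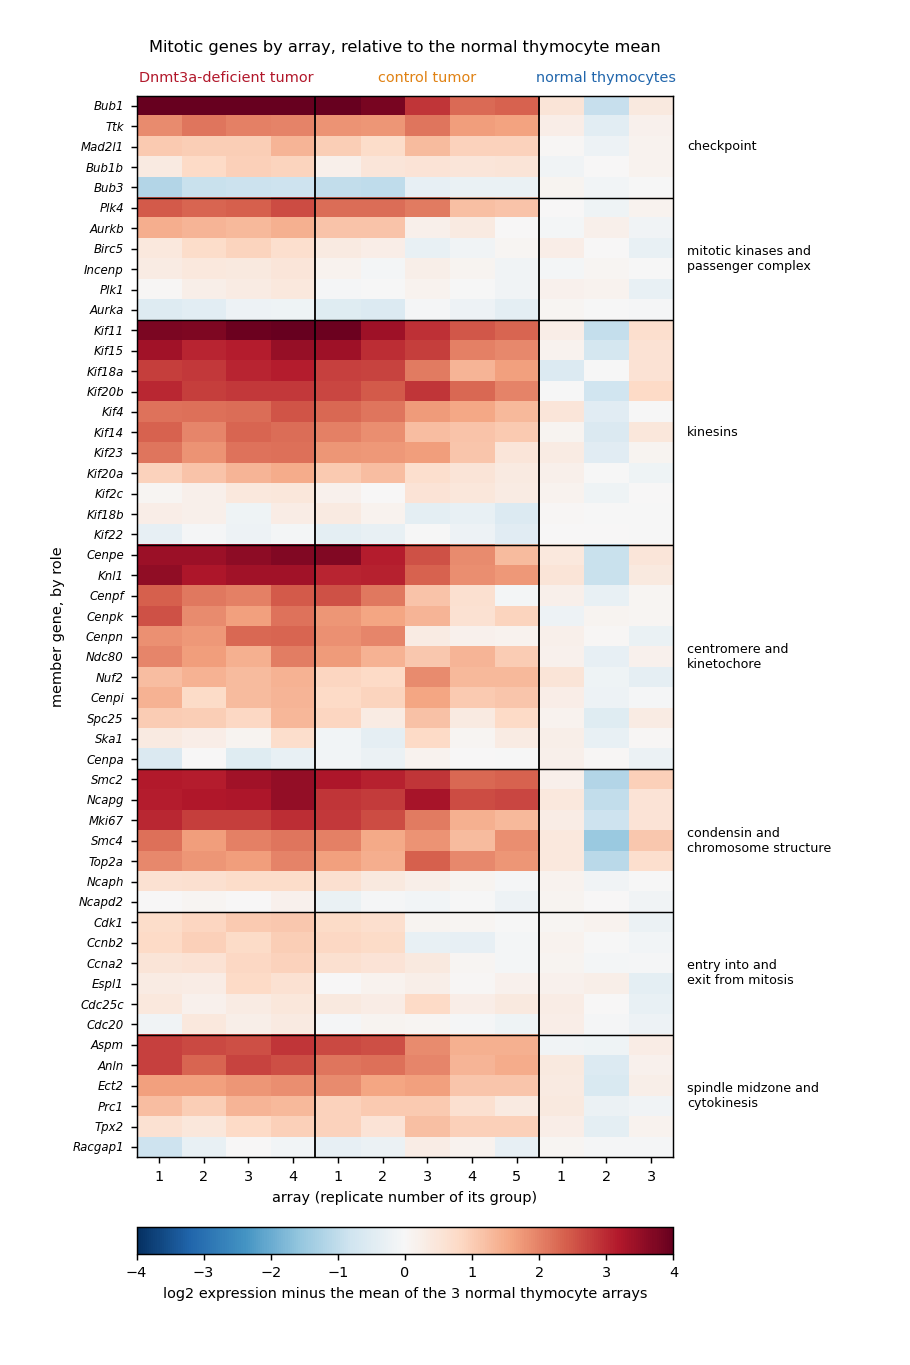
Log2 expression of each of the 52 members (rows, by role) on each of the 12 arrays (columns: Dnmt3a-deficient tumor, control tumor, normal thymocytes), minus the mean of the 3 normal arrays. Red is above that mean and blue below it. The darkest red also stands for values beyond the end of the scale. Red rows run through both tumor groups for Bub1, Kif11, Cenpe, Knl1, Smc2 and Ncapg, paler in control tumors 4 and 5. Plk1, Aurka, Cenpa and Ncapd2 stay pale, and Bub3 is blue.

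Of the 5 checkpoint genes, 4 were higher in deficient tumors and in control tumors. Over all genes, 18.7% were higher in deficient tumors and 13.0% in control tumors. These shares stand beside each count by role below. Bub1, a kinase that sits on unattached kinetochores, had log2 expression of 10.54, 10.23, 10.30 and 10.48 in deficient tumors, 10.36, 10.02, 9.11, 8.52 and 8.59 in control tumors, and 6.76, 5.33 and 6.64 in normal thymocytes. Every tumor array lay above every normal array, and control tumors 1 and 2 lay near the deficient tumors. Bub1 showed the largest difference among the members, 4.15 ± 0.44 (log2, SE) or 17.7-fold in deficient tumors (adjusted p = 1.44e-05) and 3.08 ± 0.42 or 8.45-fold in control tumors (adjusted p = 0.000154). Ttk, the kinase Mps1 that starts checkpoint signalling, was 2.01 ± 0.18 higher in deficient tumors and 1.79 ± 0.17 higher in control tumors. Mad2l1, which binds and inhibits the anaphase activator Cdc20, was 1.09 ± 0.16 higher in deficient tumors and 0.97 ± 0.15 higher in control tumors. Bub1b, the checkpoint protein BubR1, was 0.76 ± 0.16 higher in deficient tumors (adjusted p = 0.00254) and 0.45 ± 0.15 higher in control tumors (adjusted p = 0.0481). The call in deficient tumors was lost with cyclic loess scaling (0.44, adjusted p = 0.0558), and the call in control tumors with a second quantile normalization (adjusted p = 0.214) and with cyclic loess (adjusted p = 0.312).

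Bub3 went the other way from its partners. This adaptor protein carries Bub1 and BubR1 to the kinetochore. It had log2 expression of 9.76, 10.01, 10.05 and 10.09 in deficient tumors, 9.94, 9.90, 10.59, 10.64 and 10.65 in control tumors, and 11.03, 10.80 and 10.90 in normal thymocytes. All 9 tumor arrays lay below all 3 normal arrays, and control tumors 1 and 2 again lay with the deficient tumors. Bub3 fell in deficient tumors, with a difference of -0.94 ± 0.21 or 1.91-fold (adjusted p = 0.0032). In control tumors its difference was -0.57 ± 0.20, which missed the threshold (adjusted p = 0.0518) and passed it with a second quantile normalization (-0.70, adjusted p = 0.0216).

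Among mitotic kinases and passenger complex genes, 4 of 6 were higher in deficient tumors and 1 of 6 in control tumors. Plk4, the kinase that sets centriole duplication, was 2.45 ± 0.27 higher in deficient tumors and 1.78 ± 0.25 higher in control tumors. Aurkb, the Aurora kinase that corrects wrong attachments, had log2 expression of 11.19, 11.09, 11.04 and 11.16 in deficient tumors, 10.89, 10.89, 9.93, 10.08 and 9.76 in control tumors, and 9.66, 9.95 and 9.58 in normal thymocytes. Control tumors 3, 4 and 5 thus spanned the level of the highest normal array, while the deficient tumors lay above all other arrays. Aurkb was 1.39 ± 0.26 higher in deficient tumors (adjusted p = 0.00106), and its difference in control tumors was 0.58 ± 0.25 (adjusted p = 0.112).

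Birc5, or survivin, which tethers Aurora B to the centromere, had log2 expression of 8.53, 8.86, 8.99 and 8.78 in deficient tumors, 8.46, 8.39, 7.83, 7.96 and 8.19 in control tumors, and 8.39, 8.14 and 7.82 in normal thymocytes. The control tumors covered about the same range as the normal arrays. Birc5 was 0.68 ± 0.19 higher in deficient tumors (adjusted p = 0.0142), and its difference in control tumors was 0.05 ± 0.18 (adjusted p = 0.874). Incenp, the scaffold of the complex, was 0.41 ± 0.13 higher in deficient tumors, and its difference in control tumors was 0.06 ± 0.12. The calls of Birc5 and Incenp were lost with a second quantile normalization (adjusted p = 0.189 and 0.587) and with cyclic loess scaling (adjusted p = 0.0803 and 0.705). Plk1 and Aurka, which drive spindle assembly and are among the best known mitotic kinases, were not called in either tumor group: Plk1 differed from normal by 0.25 ± 0.15 in deficient tumors and -0.02 ± 0.14 in control tumors, and Aurka by -0.33 ± 0.15 in deficient tumors and -0.34 ± 0.15 in control tumors. With cyclic loess scaling Aurka passed as lower in both (-0.66 in deficient tumors, adjusted p = 0.00693, and -0.52 in control tumors, adjusted p = 0.0278). The same held with a second quantile normalization (-0.64 in deficient tumors, adjusted p = 0.00998, and -0.49 in control tumors, adjusted p = 0.0397).

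Of 11 kinesins, 8 were higher in each tumor group, with a median difference from normal of 2.22 in deficient tumors and 1.46 in control tumors. In deficient tumors this was the highest median of the 7 roles, and in control tumors it came after condensin and chromosome structure (1.84). Kif11, the Eg5 motor that pushes spindle poles apart, had log2 expression of 10.81, 10.78, 10.98 and 11.12 in deficient tumors, 10.95, 10.44, 9.97, 9.52 and 9.35 in control tumors, and 7.30, 6.10 and 7.72 in normal thymocytes. Every tumor array lay more than 1 log2 unit above every normal array. The difference was 3.88 ± 0.39 or 14.7-fold in deficient tumors (adjusted p = 1.01e-05) and 3.01 ± 0.38 or 8.05-fold in control tumors (adjusted p = 8.03e-05).

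Kif15, a motor that can share the work of Kif11, had log2 expression of 9.68, 9.38, 9.47 and 9.80 in deficient tumors, 9.72, 9.27, 9.10, 8.34 and 8.24 in control tumors, and 6.46, 5.62 and 6.89 in normal thymocytes. The 2 tumor groups overlapped, and both lay above the normal arrays. Its difference was 3.26 ± 0.35 in deficient tumors and 2.61 ± 0.34 in control tumors. Kif18a, which damps chromosome movement at the metaphase plate, was 2.94 ± 0.34 higher in deficient tumors and 2.11 ± 0.32 higher in control tumors. Kif20b, a midzone motor, was 2.85 ± 0.30 higher in deficient and 2.45 ± 0.29 higher in control tumors.

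Kif14, needed late in cytokinesis, had log2 expression of 9.04, 8.65, 9.02 and 8.93 in deficient tumors, 8.70, 8.56, 7.92, 7.84 and 7.73 in control tumors, and 6.81, 6.12 and 7.13 in normal thymocytes. Its difference was 2.22 ± 0.27 in deficient tumors and 1.46 ± 0.26 in control tumors. A second, dimmer Kif14 probe set differed by -0.52 in deficient and -0.38 in control tumors, so the probe sets of this gene disagreed. Kif4, a chromosome-bound motor, was 2.29 ± 0.25 higher in deficient tumors and 1.80 ± 0.24 higher in control tumors, and Kif23, a motor of the central spindle, 2.09 ± 0.29 in deficient and 1.35 ± 0.28 in control tumors. Kif20a, a motor that carries the passenger complex to the midzone, was 1.23 ± 0.22 higher in deficient and 0.77 ± 0.21 higher in control tumors. Kif2c, which depolymerises microtubules, was not called (0.29 ± 0.16 in deficient tumors, 0.31 ± 0.15 in control tumors). Kif18b (0.15 ± 0.21 in deficient tumors, -0.15 ± 0.20 in control tumors) and Kif22, which pushes chromosome arms (-0.16 ± 0.14 in deficient tumors, -0.27 ± 0.13 in control tumors), were not called either. Kif22 passed as lower in deficient tumors with a second quantile normalization (-0.48, adjusted p = 0.0278) and with cyclic loess scaling (-0.48, adjusted p = 0.0251), and in control tumors with cyclic loess (-0.42, adjusted p = 0.0488).

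**Figure D3:**
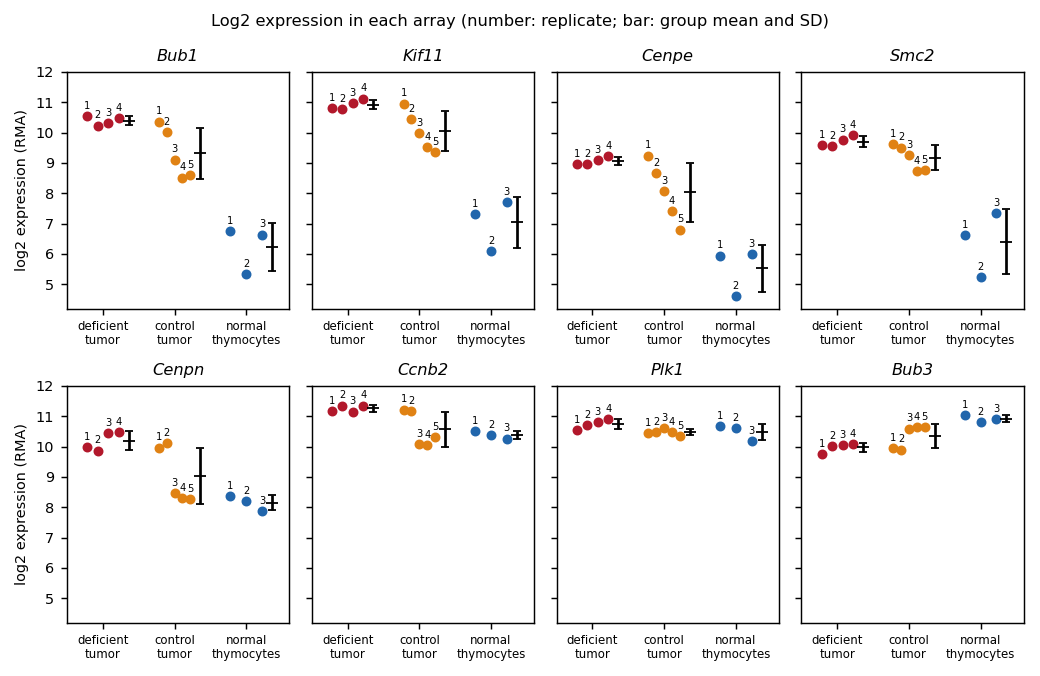
Log2 expression (RMA) of 8 members on each array, numbered by replicate, with the group mean and SD as a bar beside the points. Bub1, Kif11 and Smc2 lie far above normal in all tumors. Cenpe lies above normal in all tumors, least so in control tumor 5 (6.80, against 6.01 in normal thymocytes 3). Cenpn and Ccnb2 are high in the deficient tumors and in control tumors 1 and 2 and near normal in the other control tumors. Plk1 overlaps in all 3 groups, and Bub3 is highest in normal thymocytes.

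Of 11 centromere and kinetochore genes, 9 were higher in deficient tumors and 7 in control tumors. Cenpe, a kinetochore motor that brings chromosomes to the plate, had log2 expression of 8.95, 8.95, 9.10 and 9.22 in deficient tumors, 9.24, 8.67, 8.08, 7.40 and 6.80 in control tumors, and 5.95, 4.62 and 6.01 in normal thymocytes. Control tumors ran from above the highest deficient tumor to within 1 log2 unit of the normal arrays. Its difference was 3.53 ± 0.49 or 11.5-fold in deficient tumors (adjusted p = 0.000104) and 2.51 ± 0.46 or 5.71-fold in control tumors (adjusted p = 0.00141). Knl1, the scaffold that binds Bub1 and Bub3, had log2 expression of 10.22, 9.92, 10.04 and 10.05 in deficient tumors, 9.74, 9.77, 9.05, 8.54 and 8.41 in control tumors, and 7.19, 5.79 and 7.07 in normal thymocytes. The 3 groups did not overlap for Knl1. It was 3.38 ± 0.37 higher in deficient tumors and 2.42 ± 0.36 higher in control tumors.

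Cenpf, a large protein of the outer kinetochore, had log2 expression of 8.91, 8.63, 8.54 and 8.97 in deficient tumors, 9.06, 8.64, 7.68, 7.16 and 6.44 in control tumors, and 6.74, 6.22 and 6.62 in normal thymocytes. Control tumors spanned nearly the whole range between the other groups, and control tumor 5 lay within the normal range. Cenpf was 2.23 ± 0.48 higher in deficient tumors (adjusted p = 0.00258), and its difference of 1.27 ± 0.46 in control tumors missed the threshold (adjusted p = 0.0591) and passed it with a second quantile normalization (1.25, adjusted p = 0.0449). Cenpn, which binds the centromeric nucleosome, had log2 expression of 9.98, 9.87, 10.45 and 10.49 in deficient tumors, 9.97, 10.11, 8.48, 8.31 and 8.28 in control tumors, and 8.36, 8.21 and 7.87 in normal thymocytes. Control tumors 1 and 2 lay with the deficient tumors and control tumors 3, 4 and 5 near the normal arrays. Cenpn was 2.05 ± 0.43 higher in deficient tumors (adjusted p = 0.00224), and its difference in control tumors was 0.88 ± 0.41 (adjusted p = 0.14).

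Cenpk, a subunit of the inner kinetochore network, had log2 expression of 8.13, 7.46, 7.21 and 7.76 in deficient tumors, 7.33, 7.14, 6.94, 6.18 and 6.47 in control tumors, and 5.38, 5.68 and 5.66 in normal thymocytes. All tumor arrays lay above the normal arrays, and the difference was 2.06 ± 0.27 in deficient tumors and 1.24 ± 0.26 in control tumors. Of the Ndc80 complex, the main microtubule binder of the kinetochore, all 3 measured members were higher in both tumor groups: Ndc80 by 1.78 ± 0.21 in deficient and 1.31 ± 0.20 in control tumors, Nuf2 by 1.32 ± 0.25 in deficient and 1.23 ± 0.24 in control tumors, and Spc25 by 1.04 ± 0.24 in deficient and 0.71 ± 0.23 in control tumors. The Spc25 call in control tumors was lost with a second quantile normalization (adjusted p = 0.115) and with cyclic loess scaling (adjusted p = 0.0624). Cenpi, another inner kinetochore gene, was 1.20 ± 0.21 higher in deficient and 1.09 ± 0.20 higher in control tumors. Cenpa, the histone that marks the centromere, was not called (-0.33 ± 0.17 in deficient tumors, -0.04 ± 0.16 in control tumors), nor was Ska1, which couples kinetochores to shrinking microtubules (0.36 ± 0.25 in deficient tumors, 0.14 ± 0.23 in control tumors). Cenpa passed as lower in deficient tumors with a second quantile normalization (-0.64, adjusted p = 0.0158) and with cyclic loess scaling (-0.67, adjusted p = 0.0106).

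Of 7 condensin and chromosome structure genes, 6 were higher in deficient tumors and 5 in control tumors. Smc2, the ATPase core of condensin, had log2 expression of 9.59, 9.55, 9.77 and 9.91 in deficient tumors, 9.63, 9.50, 9.27, 8.72 and 8.75 in control tumors, and 6.62, 5.25 and 7.35 in normal thymocytes. Both tumor groups lay more than 1 log2 unit above every normal array, while the normal arrays themselves were wide apart. Its difference was 3.30 ± 0.38 or 9.83-fold in deficient tumors (adjusted p = 2.95e-05) and 2.77 ± 0.37 or 6.80-fold in control tumors (adjusted p = 0.000126). Ncapg, a regulatory subunit of condensin I, had log2 expression of 9.51, 9.58, 9.61 and 9.88 in deficient tumors, 9.22, 9.15, 9.65, 8.96 and 9.03 in control tumors, and 6.78, 5.38 and 6.92 in normal thymocytes. The tumor groups overlapped and lay above normal, with differences of 3.28 ± 0.30 in deficient tumors (adjusted p = 5.05e-06) and 2.84 ± 0.29 in control tumors (adjusted p = 1.75e-05). Smc4, the partner of Smc2, was 2.00 ± 0.44 higher in deficient and 1.69 ± 0.42 higher in control tumors. The other condensin I subunits differed less: Ncaph was 0.68 ± 0.16 higher in deficient tumors, with 0.27 ± 0.16 in control tumors, and Ncapd2 was not called (0.07 ± 0.12 in deficient tumors, -0.13 ± 0.12 in control tumors). With cyclic loess scaling the Ncaph call in deficient tumors was lost (0.35, adjusted p = 0.0738), and Ncapd2 passed as lower in control tumors (-0.34, adjusted p = 0.0478).

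Top2a had log2 expression of 10.68, 10.51, 10.44 and 10.76 in deficient tumors, 10.41, 10.23, 11.16, 10.68 and 10.53 in control tumors, and 9.17, 7.68 and 9.43 in normal thymocytes. The tumor groups overlapped, and the difference from normal was 1.84 ± 0.34 in deficient tumors and 1.84 ± 0.32 in control tumors. A second, dimmer Top2a probe set differed by -1.60 in deficient and -1.31 in control tumors. With the mean over both sets, the difference was 0.12 in deficient tumors (adjusted p = 0.761) and 0.26 in control tumors (adjusted p = 0.508). Mki67, which coats mitotic chromosomes and is the antigen of the Ki-67 stain for dividing cells, had log2 expression of 11.63, 11.39, 11.41 and 11.59 in deficient tumors, 11.45, 11.24, 10.70, 10.06 and 9.93 in control tumors, and 8.92, 7.80 and 9.17 in normal thymocytes. No tumor array overlapped with a normal array, and the difference was 2.87 ± 0.38 in deficient tumors and 2.05 ± 0.36 in control tumors.

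Of 6 genes of entry into and exit from mitosis, 4 were higher in deficient tumors. In control tumors limma called 0 of 6, and 1 (Cdc25c) was higher at an unadjusted p under 0.05. The share of all genes higher at that unadjusted threshold was not counted. Cdk1, the kinase that drives mitotic entry, had log2 expression of 10.38, 10.51, 10.69 and 10.72 in deficient tumors, 10.41, 10.33, 9.77, 9.74 and 9.63 in control tumors, and 9.74, 9.80 and 9.42 in normal thymocytes. Control tumors 1 and 2 lay with the deficient tumors and control tumors 3, 4 and 5 with the normal arrays. Cdk1 was 0.92 ± 0.21 higher in deficient tumors (adjusted p = 0.00358), and its difference in control tumors was 0.32 ± 0.20 (adjusted p = 0.269). The cyclins Ccnb2 and Ccna2 were 0.88 ± 0.27 and 0.71 ± 0.19 higher in deficient tumors, and Espl1, the protease separase that opens cohesin rings, 0.50 ± 0.18 higher. These 3 calls were lost with cyclic loess scaling (adjusted p = 0.113, 0.0847 and 0.486). Those of Ccnb2 and Espl1 were also lost with a second quantile normalization (adjusted p = 0.0523 and 0.501). Cdc20, which activates the anaphase promoting complex, and Cdc25c, a phosphatase that activates Cdk1, were not called in deficient tumors (0.21 ± 0.17 and 0.35 ± 0.17) or in control tumors (-0.01 ± 0.16 and 0.43 ± 0.16).

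Of 6 genes grouped as spindle midzone and cytokinesis, which include the spindle proteins Aspm and Tpx2, 5 were higher in each tumor group. Anln, or anillin, which holds the contractile ring, had log2 expression of 9.59, 9.18, 9.55 and 9.42 in deficient tumors, 8.98, 9.04, 8.82, 8.20 and 8.33 in control tumors, and 7.25, 6.29 and 7.02 in normal thymocytes. The 3 groups did not overlap, and the difference from normal was 2.58 ± 0.25 in deficient tumors and 1.82 ± 0.24 in control tumors. Aspm, a spindle pole protein, was 2.70 ± 0.29 higher in deficient and 1.99 ± 0.27 higher in control tumors. Ect2, the exchange factor that switches on RhoA at the equator, was 1.74 ± 0.24 higher in deficient and 1.47 ± 0.23 higher in control tumors. Prc1, which bundles midzone microtubules, was 1.22 ± 0.20 higher in deficient and 0.80 ± 0.19 higher in control tumors. Tpx2, which activates Aurora A on the spindle, was 0.70 ± 0.20 higher in deficient tumors and 0.92 ± 0.19 higher in control tumors. The first of these calls was lost with a second quantile normalization (adjusted p = 0.176) and with cyclic loess scaling (adjusted p = 0.191). Racgap1, the partner of Kif23, was not called (-0.29 ± 0.21 in deficient tumors, -0.09 ± 0.20 in control tumors), and passed as lower in deficient tumors with cyclic loess scaling (-0.61, adjusted p = 0.0412).

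**Figure D4:**
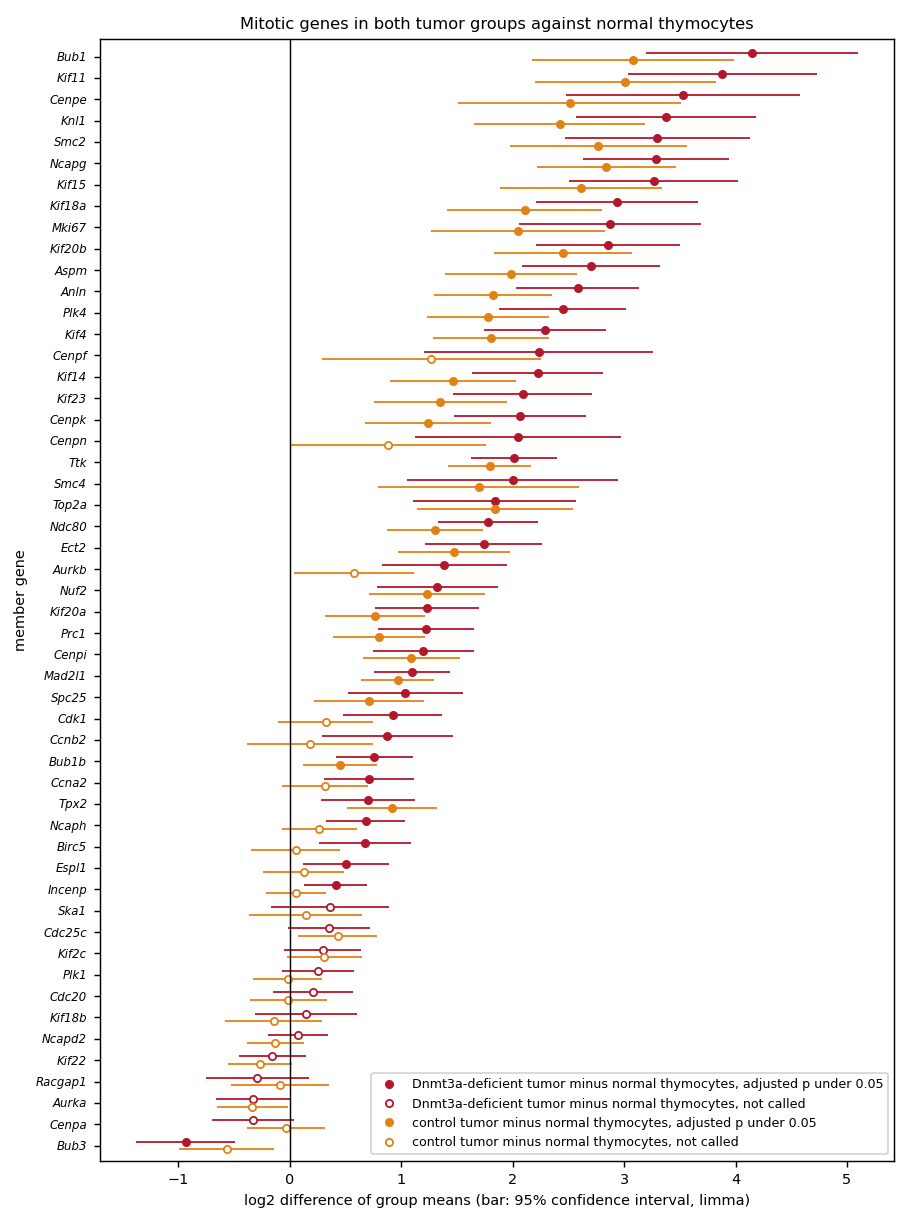
Log2 difference from normal thymocytes of each member in Dnmt3a-deficient tumors (red, upper point) and control tumors (orange, lower point), with the 95% confidence interval from limma. Filled points passed an adjusted p of 0.05, as did 40 higher members and Bub3 in deficient tumors and 30 higher members in control tumors.

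Between the tumor groups, most mitotic genes had higher means in Dnmt3a-deficient than in control tumors, but 0 of 52 members passed the test. Over all genes, 158 of 19309 (0.818%) were called in either direction. That number ranged from 16 without deficient tumor 4 to 1482 without control tumor 2 when 1 array was left out, and was 1 when only the 2 tumor groups entered the fit. The smallest adjusted p of a member was 0.0945, for Birc5. The median log2 difference, deficient minus control, was 0.41 over the members, with a range of -0.37 to 1.17, against -0.01 over all genes. A positive difference was found in 45 of 52 members, against 48.5% of all genes. The median over the members was 0.26 with a second quantile normalization and 0.27 with cyclic loess scaling, where the medians over all genes were -0.02. At an unadjusted p under 0.05, 27 members were higher, against 12.6% of all genes, and 0 were lower, against 7.58%. The median half-width of the members' 95% confidence intervals was 0.46.

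Cenpn had the largest mean difference, 1.17 with a 95% confidence interval of 0.36 to 1.98 (adjusted p = 0.129). Bub1 followed with 1.07 (0.23 to 1.91, adjusted p = 0.159), then Cenpe with 1.02 (0.10 to 1.94), Cenpf with 0.97 (0.06 to 1.87), Knl1 with 0.96 (0.25 to 1.67) and Kif11 with 0.87 (0.13 to 1.62). The SD of the control tumors was 0.64 to 1.07 in these 6 members, against 0.12 to 0.32 in the deficient tumors. In 10 members every deficient tumor lay above every control tumor, against 3.80% of all genes, namely Plk4, Aurkb, Birc5, Incenp, Kif18a, Kif23, Knl1, Ncapd2, Espl1 and Anln. Among those with the smallest p, Birc5 differed by 0.62 ± 0.17 (SE), Aurkb by 0.81 ± 0.23, Cenpk by 0.82 ± 0.24, Anln by 0.76 ± 0.22, Cdk1 by 0.60 ± 0.18 and Kif14 by 0.76 ± 0.24, with adjusted p of 0.0945 to 0.123. At the other end, Top2a differed by -0.00 (-0.64 to 0.64), Aurka by 0.01 (-0.29 to 0.30) and Kif2c by -0.02 (-0.32 to 0.29). Bub3 had the lowest value, -0.37 (-0.76 to 0.02, adjusted p = 0.27).

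The 2 kinds of tumor differed in how far apart their own arrays lay. The median SD of a member was 0.169 in deficient tumors, 0.357 in control tumors and 0.279 in normal thymocytes, against 0.186, 0.278 and 0.186 over all genes. Control tumors 1 and 2, whose 75th percentile was like that of the deficient tumors, both lay above control tumors 3, 4 and 5 in 26 of 52 members, against 25.5% of all genes, and both below in 9, against 21.1%. The 26 members included Bub1, Aurkb, Kif11, Cenpe, Cenpf, Cenpn, Knl1, Smc2, Mki67, Cdk1, Ccna2, Ccnb2 and Aspm, and the 9 included Bub3, Aurka, Top2a and Tpx2. With the 75th percentile of each array taken off, the mean over the members was 0.83 and 0.75 in control tumors 1 and 2. It was 0.91, 0.61 and 0.54 in control tumors 3, 4 and 5. Control tumor 3 lay highest on that scale, so the order of the control tumors depended on array scaling. Control tumors 3 and 4 were the arrays with high neutrophil markers, while control tumor 5 was not (5.58). The part of the other cells in these values was not tested.

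Without control tumors 1 and 2, 25 members were higher in deficient than in control tumors and 1, Bub3, was lower, against 16.1% and 9.24% of all genes, and the median difference of the members was 0.54. In that fit Cenpn was 1.84 ± 0.18 higher (adjusted p = 6.52e-05), Aurkb 1.20 ± 0.13 higher (adjusted p = 0.000116), Ccnb2 1.11 ± 0.13 higher (adjusted p = 0.000148), Aspm 1.12 ± 0.16 higher (adjusted p = 0.000566) and Cenpf 1.67 ± 0.25 higher (adjusted p = 0.000679), while Bub3 fell by 0.65 ± 0.13 (adjusted p = 0.00321). In all of these members control tumors 1 and 2 lay on the side of the deficient tumors, so leaving them out widened the difference. The p-values of that fit therefore describe a choice of arrays and are no test of the 2 kinds of tumor. Without control tumors 3, 4 and 5, limma called 0 members higher and 0 lower, against 0.0880% and 0.337% of all genes, and the median was 0.22. At an unadjusted p under 0.05, 3 members were higher in that fit and 0 lower, against 4.43% and 6.03% of all genes. Leaving out control tumor 1 alone gave 10 higher members, against 4.08% of all genes, and leaving out control tumor 2 alone gave 9, against 5.71% of all genes. The number of members called between the tumor groups thus changed with the control tumors that entered the fit.

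**Figure D5:**
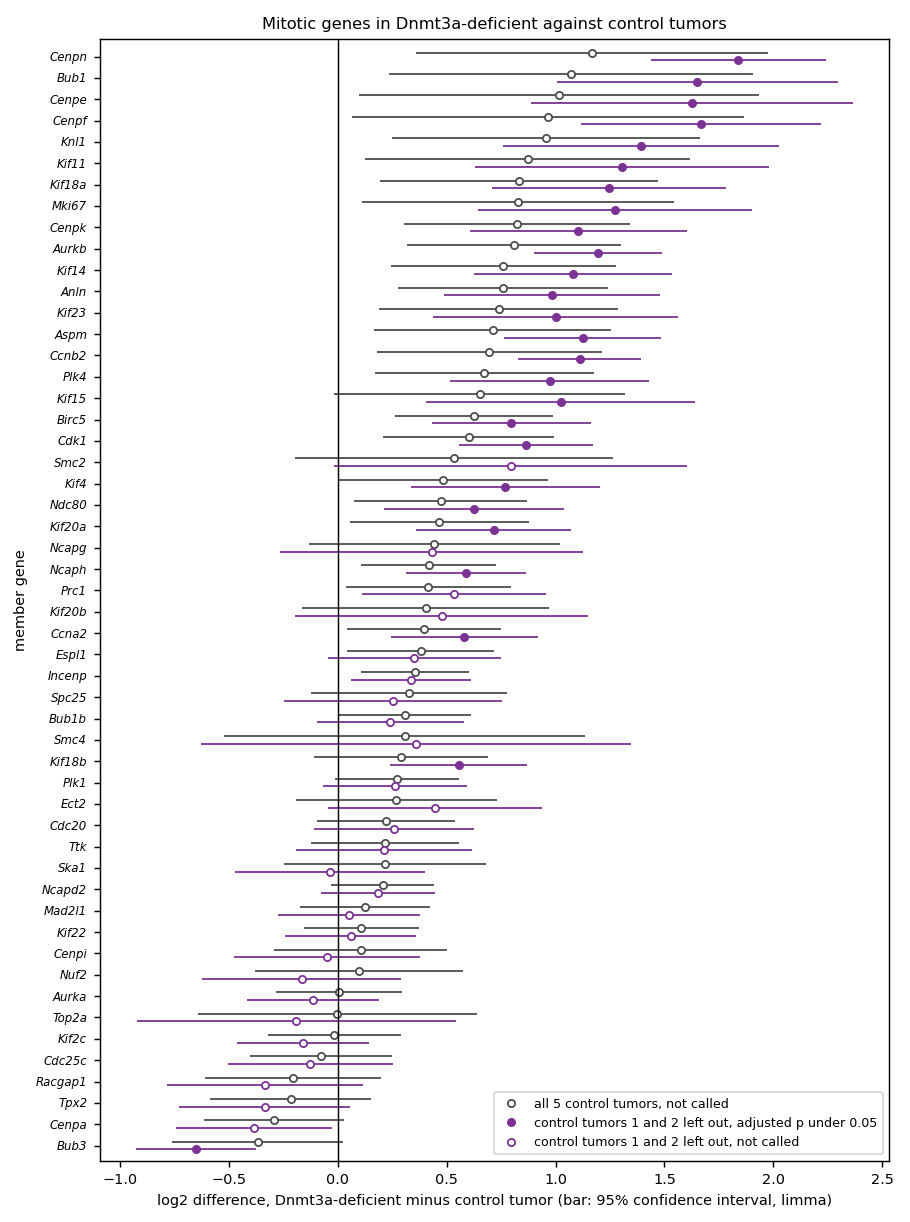
Log2 difference of each member, Dnmt3a-deficient minus control tumor, with the 95% confidence interval, for all 5 control tumors (grey, upper point, 0 called) and without control tumors 1 and 2 (purple, lower point). Filled points passed an adjusted p of 0.05, as did 25 higher members and Bub3 without those 2 arrays.

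The normal arrays were not alike either. Normal thymocytes 2 had the lowest log2 expression of the 3 normal arrays in 32 of 52 members, against 31.5% of all genes. It lay at least 1 log2 unit below both other normal arrays in 9 members (Bub1, Kif11, Cenpe, Knl1, Smc2, Smc4, Ncapg, Top2a and Mki67), against 0.803% of all genes. Several of these are the members with the largest differences from normal. Without this array, 38 members were higher in deficient tumors, against 15.5% of all genes, and 26 in control tumors, against 9.82%. Without it and control tumors 1 and 2 together, 40 were higher in deficient tumors, against 19.5% of all genes, and 25 in control tumors, against 10.6%. In control tumors the calls of Bub1b, Kif20a, Spc25 and Prc1 were among those lost without normal thymocytes 2 (adjusted p = 0.116, 0.0583, 0.207 and 0.0507), and in deficient tumors those of Ccnb2 and Tpx2 (adjusted p = 0.0643 and 0.0747).

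Other genes of the same machinery, in lists counted without the members, were taken from the same fits. Over all genes, 18.7% were higher and 19.0% lower in deficient tumors, and 13.0% and 11.3% in control tumors. These shares stand beside the counts against normal of every list below. Of 29 other centromere and kinetochore genes, 14 were higher and 4 lower in deficient tumors, and 9 and 2 in control tumors. Those with the largest differences in deficient tumors were Zwilch (2.52 ± 0.31), part of a complex that loads dynein, and Cenpq and Cenpu (2.02 ± 0.20 and 1.93 ± 0.23), both of the inner kinetochore. Of 42 other spindle and centrosome genes, 27 were higher and 4 lower in deficient tumors, and 20 and 4 in control tumors, led by the centriole gene Sass6 (2.89 ± 0.39), the microtubule polymerase Ckap5 (2.79 ± 0.35) and Nusap1 (2.68 ± 0.39). Of 17 cohesin and condensin II genes, 11 were higher and 1 lower in deficient tumors, and 10 and 2 in control tumors, led by Esco2 (3.42 ± 0.49), which acetylates cohesin, the regulator Pds5a (2.72 ± 0.27) and the core subunit Smc3 (2.55 ± 0.36).

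The anaphase promoting complex, the ubiquitin ligase that ends metaphase, was mixed: 8 of 19 genes were higher and 6 lower in deficient tumors, and 4 and 4 in control tumors. Its subunits Cdc27 and Anapc10 were 2.49 ± 0.26 and 1.55 ± 0.37 higher in deficient tumors, while Anapc2 fell by 1.46 ± 0.17. Of 21 other genes of entry into mitosis, 8 were higher and 3 lower in deficient tumors and 8 and 2 in control tumors, with the checkpoint kinase Chek1 at 3.20 ± 0.29 and the Cdk1 partners Cks1b and Cks2 at 1.82 ± 0.27 and 1.78 ± 0.28 in deficient tumors. Of 12 other cytokinesis genes, 4 were higher and 1 lower in each tumor group, among them Arhgap11a (2.16 ± 0.27), Shcbp1 (1.89 ± 0.23) and Cit (1.01 ± 0.15) in deficient tumors. DNA replication genes, set beside the mitotic genes as another part of the cycle, had 26 of 50 higher and 0 lower in deficient tumors, with a median of 0.70. In control tumors 24 were higher and 0 lower, with a median of 0.54. At an unadjusted p under 0.05, 3 were lower in deficient tumors, where the share of all genes was not counted. In control tumors 0 were lower at that threshold, against 18.9% of all genes. Between the tumor groups 1 of the 190 measured genes of these 7 lists was called, against 0.818% of all genes: Mybl2, the B-Myb factor that binds MuvB at mitotic promoters, was 0.70 ± 0.12 higher in deficient tumors (adjusted p = 0.0294). This call was lost when only the 2 tumor groups entered the fit (adjusted p = 0.0681), with a second quantile normalization (0.0646), with cyclic loess (0.0579), with the replicate block (0.0775), without control tumors 3, 4 and 5 together (0.125), and without control tumor 3 (0.0758), control tumor 4 (0.0699), deficient tumor 3 (0.0981) or deficient tumor 4 (0.114) alone.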

How the data were processed

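Total RNA was measured on 12 single-channel expression arrays. The authors deposited log2 expression per probe set. The submitters' processing notes name RMA and Affymetrix Expression Console, without versions. RMA levels quantiles between arrays, yet the deposited arrays differ in their 75th percentile. Of 23858 probe sets in all, 20870 carried a single gene symbol, 1453 carried several and 1535 carried none. The brightest single-symbol set over all 12 arrays stood for a gene, which left 19309 genes. Signals have a floor, with lowest values of 2.40 to 2.72, and are relative to the total of each array.

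A model with 3 group means was fitted with limma 3.58.1 in R 4.3.3 (9 residual and 4.17 prior degrees of freedom). Tests were two-sided, adjusted by the Benjamini-Hochberg method over all genes and called at 0.05. Errors are standard errors unless named otherwise. The steps were tested on simulated data. All value columns of the table were used. RefSeq tables (GRCm38.p6) gave newer symbols and promoter windows.

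Alternatives were array scaling, a filter on dim genes, probe set choice, the arrays in the fit, limma-trend, array weights, a replicate block and leaving out arrays. Leaving out normal thymocytes 2 with control tumors 1 and 2 was added after seeing the data. The members, the gene lists and the rule for named genes were chosen with earlier results of these data known. That rule gives every array for the 6 members with the largest differences in each comparison, the 6 with the smallest p between tumors, members called lower and 5 well-known members. For each other list up to 3 called genes with the largest difference in deficient tumors are named. The number of arrays limits the precision.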

Additional observations from a re-analysis of the deposited data

Results flagged for a closer look

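In 4 of 106 groups of member values tested, 1 array lay far from the rest of its group by Dixon's criterion, and chance alone gives about 1 in 20. Kif18b had a log2 expression of 9.55 in deficient tumor 3, against 9.95 to 10.02 in the other deficient tumors. Kif23 had 9.87 in deficient tumor 2, against 10.21 to 10.27. Bub1b had 9.83 in control tumor 1, against 10.09 to 10.17 in the other control tumors. Cdc25c had 7.77 in control tumor 3, against 7.25 to 7.39.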

How the results depend on the processing

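Under the alternatives run, 36 to 40 members were higher than normal in deficient tumors when 1 array was left out and 32 to 40 otherwise. In control tumors these ranges were 26 to 30 and 25 to 35. Members lower in deficient tumors numbered 4 with a second quantile normalization, 5 with cyclic loess and 1 to 2 with 1 array left out, against 1. The median difference from normal over all members in deficient tumors was 1.00 with a second quantile normalization, against 1.28. Members lower in control tumors numbered 2 with a second quantile normalization (14.7%), 4 with cyclic loess (11.2%) and 2 without control tumors 3, 4 and 5 (16.3%), against 0 (11.3%). They numbered 1 each without the dimmest 50% of genes (18.1%), with limma-trend (11.0%) and with the replicate block (10.3%). With 1 array left out they numbered 0 to 1 (6.74% to 12.2%). Higher members in deficient against control tumors numbered 22 with array weights (11.7% of all genes were higher there), 25 without control tumors 1 and 2 (16.1%), 26 without these and normal thymocytes 2 (16.3%), and 0 to 10 with 1 array left out, against 0 (0.590%). Lower members there numbered 1 in each of the first 3 of these fits, always Bub3, against 5.58%, 9.24% and 9.44% of all genes. In deficient tumors single calls against normal ended without deficient tumor 3 (Espl1, adjusted p = 0.111), deficient tumor 4 (Espl1 0.092, Incenp 0.0619, Ccnb2 0.0533), normal thymocytes 1 (Incenp 0.0754), normal thymocytes 2 (Ccnb2 0.0643, Tpx2 0.0747) or normal thymocytes 3 (Espl1 0.2, Birc5 0.0741, Incenp 0.0617, Ccnb2 0.075), and Cenpa became lower without deficient tumor 2 (adjusted p = 0.0475). In control tumors Bub1b lost its call without any 1 of 10 arrays, all but deficient tumor 1 and control tumor 1 (adjusted p = 0.0535 to 0.163), Spc25 without control tumor 1, 3 or 5 or normal thymocytes 1 or 2 (0.0572 to 0.207), Kif20a without normal thymocytes 2 or 3 (0.0583 and 0.0718) and Prc1 without normal thymocytes 2 (0.0507), while Bub3 became lower without control tumor 3, 4 or 5 (adjusted p = 0.0452, 0.0351 and 0.0317). There Aurkb became higher without control tumor 5 (adjusted p = 0.0398), Cenpf without control tumor 4 or 5 (0.0428 and 0.00633) and Cdc25c without normal thymocytes 1 (0.036). No value called in either fit changed sign, and 85 values not called in either fit did. The cause of these differences was not tested.

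The labels do not say whether a replicate number pairs samples. Of 10 same-numbered pairs, 1 had a correlation of deviations over 0.1 (range -0.13 to 0.34). Pairs with different numbers were not compared, so these correlations cannot decide whether the samples are paired. With the replicate block 38 members were higher in deficient tumors, against 18.6% of all genes, and 30 in control tumors, against 13.6%. The few arrays per group, the floor of the signal and the differing upper quantiles limit small differences most.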
